A study of Mus musculus with 2 samples.

Results

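Syndecans and glypicans are the cell-surface carriers of heparan sulfate, and 10 mouse genes encode them: *Sdc1* to *Sdc4* for the syndecans and *Gpc1* to *Gpc6* for the glypicans. The genes were taken by symbol and no measured value entered the rule, but earlier results of these data were known when they were chosen. Of the 10, 9 are listed among the 23628 genes of the deposited values, and *Gpc5* is not listed there, so no value is given for it. RNA-sequencing was done on 2 libraries of 1 condition, replicate 1 and replicate 2, made from chondrospheres. These are colonies that grew for weeks in methylcellulose under low oxygen from GFP-high cells seeded at low density. The cells came from the femoral heads of *Sox9*-GFP pups at postnatal day 7, a reporter strain bred as homozygous *Sox9*-IRES-EGFP. The medium contained serum, FGF2, BMP4, IGF1, LIF and TGF-β1, and the reporter marks any cell that transcribes *Sox9*, so the sort is for SOX9 level and not for one cartilage zone. CD31, Ter119 and CD45 were used to gate out endothelial, erythroid and white blood cells. The methods treat each pup as a replicate, but the labels do not say that the libraries came from separate pups, so the spread between them may be partly technical. There is no second condition, and hence levels, their order and the difference between the libraries are described without a test.

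Each syndecan is a transmembrane protein with a short cytoplasmic tail that binds scaffold proteins, whereas each glypican is a globular protein held in the outer leaflet of the membrane by a glycosylphosphatidylinositol (GPI) anchor. Both carry heparan sulfate chains, which bind FGFs, hedgehogs, Wnts, BMPs and matrix proteins and set how far and how strongly these reach their receptors. In growing cartilage heparan sulfate is known to restrain the range of Indian hedgehog and to serve FGF signalling. SDC3 is known from proliferating chondrocytes of the growth plate, SDC4 from cartilage breakdown, GPC3 as a brake on body growth, and GPC6 from a human short-limb syndrome.

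The syndecans share the end of their cytoplasmic tail, where scaffold proteins with PDZ domains such as syntenin bind. The last 48 bases of their coding sequences, stop codon included, are shown because they define the family and because they bear on whether reads can be assigned to one member. They were read from the GENCODE M21 transcripts of GRCm38, each lies in 1 coding exon, and capitals mark the 14 positions at which all 4 genes have the same base.
Sdc1, chr12:8791760-8791807, plus strand: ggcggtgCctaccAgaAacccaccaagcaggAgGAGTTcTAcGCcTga
Sdc2, chr15:33032493-33032540, plus strand: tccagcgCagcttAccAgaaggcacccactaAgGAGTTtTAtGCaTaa
Sdc3, chr4:130822762-130822809, plus strand: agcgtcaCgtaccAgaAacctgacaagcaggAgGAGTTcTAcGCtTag
Sdc4, chr2:164426086-164426133, minus strand: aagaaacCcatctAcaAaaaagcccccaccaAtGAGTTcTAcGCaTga

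Most of the shared positions lie next to the stop codon. *Sdc1* and *Sdc3* had the same base at 37 of the 48 positions (77.1%) and *Sdc2* and *Sdc4* at 29 (60.4%), while the other pairs shared 39.6 to 50.0%. Upstream of this stretch, the longest run of bases that any 2 syndecan coding sequences have in common is 29 bases long and lies in *Sdc3* and *Sdc4*.
Sdc3 and Sdc4: taccgcatgaagaagaaggacgaaggcag
Among the glypicans the longest common run was 17 bases, between *Gpc4* and *Gpc6*. All of these are shorter than the 50-base reads, so a read of coding sequence without errors belongs to 1 family member. Words of 50 bases that also occur in other genes made up 0.78% of *Sdc1*, 1.98% of *Sdc2* and none of *Sdc3*, *Sdc4*, *Gpc1*, *Gpc3*, *Gpc4* and *Gpc6*. The exception is *Gpc2*, of which 49.68% was shared with *Gm43720*, a gene model that overlaps it on the same strand, so its level is uncertain. *Gm43720* itself was listed at 1e-07 CPM in replicate 1 and 0 in replicate 2, so almost none of the shared reads were assigned to it.

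Values are counts-per-million (CPM), that is, the reads of a gene scaled to the same total in each library. From the steps between the lowest values, replicate 1 holds about 43300000 reads and replicate 2 about 42200000. A level of 3 reads, taken as the lowest that the depth can show, corresponds to 0.0693 CPM and 0.0712 CPM, which covers counting error only. The total depends on the 10 highest genes, with 43.4% of it in replicate 1 and 34.7% in replicate 2. Of the 9 chondrocyte markers, among them *Col2a1* and *Acan*, all were above 1 CPM in both libraries, and *Matn1* differed most, with 902 and 29.2 CPM. Of the 6 endothelial markers, *Cdh5*, *Kdr*, *Tek* and *Emcn* were listed at 0 in both libraries, and *Pecam1* and *Vwf* made up the summed 0.370 and 0.261 CPM. The 5 listed leukocyte markers summed to 3.26 and 3.50 CPM, most of it *Cd68* and *Lyz2*, with *Adgre1* at 0 in both. The 5 erythroid markers summed to 0.0930 and 0.120 CPM, with *Hba-a2* at 0 in both, and the 3 listed epithelial markers to 0.0462 and 0.190 CPM, with *Cdh1* at 0 in both. The 8 fibroblast markers summed to 2663 and 1326 CPM, nearly all of it from the matrix genes *Col1a1*, *Dcn* and *Col3a1*. The other 5 were low, with *Pdgfra* at 2.03 and 2.71 CPM, *Thy1*, *Dpt* and *Cd34* below 1 CPM and *Pi16* at 0 in both. The 6 osteoblast markers summed to 6.05 and 54.2 CPM, with *Dmp1* and *Sp7* highest in replicate 2. Their part in the differences between libraries described below was not tested.

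*Sdc3* had the highest level of all members. Its CPM was 1727 in replicate 1 and 2065 in replicate 2, on average 1896 ± 239 (SD, n = 2). The gene lies on chromosome 4 of GRCm38 from 130792537 to 130826319, on the plus strand. In bulk RNA, more cells with a transcript and more transcript per cell cannot be told apart, so this level does not say how many cells of a chondrosphere express *Sdc3*. *Sdc4*, whose product is a co-receptor with integrins at focal adhesions, had 233 CPM in replicate 1 and 168 in replicate 2 (200.2 ± 45.8, SD, n = 2). The values of *Sdc2*, which in many tissues marks mesenchymal cells, were 147 and 207 CPM (177 ± 42.9, SD, n = 2). *Sdc1*, best known from epithelia and plasma cells, was nearly alike in both libraries at 139 and 154 CPM (146 ± 10.5, SD, n = 2). All 4 syndecans were thus above 100 CPM in both libraries, while the epithelial markers *Epcam* and *Krt18* were at or below 0.190 CPM.

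The glypicans spanned a wider range. *Gpc1* is the glypican best known from skeletal muscle and brain. It had 297 CPM in replicate 1 and 281 in replicate 2 (289 ± 11.3, SD, n = 2). In CPM this was the smallest relative spread of any member, but that place depended on the scaling. Set against the median shift of all genes between the libraries, *Gpc1* moved by -0.38 on a log2 scale. *Sdc1* (-0.16), *Sdc2* (0.19), *Sdc3* (-0.05) and *Gpc6* (0.09) moved less, and *Sdc4*, *Gpc2*, *Gpc3* and *Gpc4* moved more. *Gpc6* had 139 and 182 CPM (160.3 ± 30.5, SD, n = 2). *Gpc4*, the closest relative of *Gpc6*, was less even, with 17.1 CPM in replicate 1 and 51.6 in replicate 2 (34.3 ± 24.4, SD, n = 2). The remaining listed glypicans were low. *Gpc2*, mainly a gene of the developing nervous system, had 0.693 CPM in replicate 1, or about 30 reads, with a 95% exact Poisson interval of 0.468 to 0.990 CPM. In replicate 2 it had 1.68 CPM, or about 71 reads, with an interval of 1.32 to 2.12 CPM. *Gpc3* was listed at 0 in replicate 1, and in replicate 2 its level was 1.54 CPM, or about 65 reads, with an interval of 1.19 to 1.97 CPM. These intervals cover counting error only. A level of at least 1 CPM in both libraries was reached by 7 of the 9 listed members, against 50.3% of all genes listed, and the same 7 were also above 10 CPM in both.

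**Figure D1:**
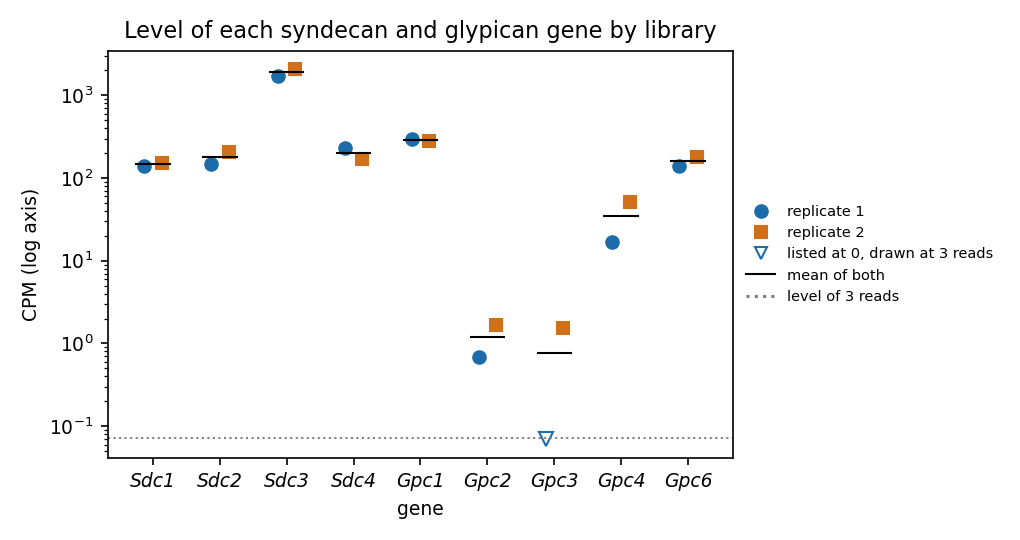
CPM of the 9 listed members in replicate 1 (circles) and replicate 2 (squares) on a log axis; the bar is the mean of both, the dotted line is the level of 3 reads, and the open triangle stands for a value listed at 0. *Sdc3* is plotted highest at 1727 and 2065 CPM, 5 further members lie above 100 CPM in both libraries, and *Gpc2* and *Gpc3* lie below 2 CPM.

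The genes of 4 glypicans sit in pairs on a chromosome. *Gpc4* (chromosome X from 52053021 to 52165252) and *Gpc3* (chromosome X from 52272426 to 52613950) are both on the minus strand, 107.2 kb apart with no protein-coding gene annotated between them. In replicate 2 the level per kilobase of exon was 34.0 times as high for *Gpc4* as for *Gpc3*, and in replicate 1 *Gpc3* was listed at 0. The other pair is *Gpc5* and *Gpc6* on chromosome 14, both on the plus strand and 400.1 kb apart, again with no protein-coding gene in between. *Gpc6* (116925315 to 117976544) was above 100 CPM in both libraries, and *Gpc5* is not listed.

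Levels of different genes can be compared only per length, because a longer transcript gives more fragments. CPM was therefore divided by the union of the annotated exons in kilobases. On this scale *Sdc3* had 288 CPM per kilobase in replicate 1 and 345 in replicate 2, and ranked 81 among the 22967 genes whose name matched a gene of the annotation. *Sdc4* came second with 91.3 and 65.9 CPM per kilobase. *Sdc3* was thus 3.16 times as high as *Sdc4* in replicate 1 and 5.23 times in replicate 2. On the log2 scale this is 2.02 ± 0.52 (SD, n = 2). After them came *Gpc1* at 57.6 and 54.6 CPM per kilobase and *Sdc2* at 41.6 and 58.8, and these neighbours changed places between the libraries, with a log2 ratio of 0.18 ± 0.41 (SD, n = 2). *Sdc1* followed at 36.5 and 40.4 CPM per kilobase, *Gpc6* at 21.6 and 28.3, and *Gpc4* at 6.44 and 19.5. For each of the neighbours *Sdc4* and *Gpc1*, *Sdc2* and *Sdc1*, *Sdc1* and *Gpc6*, and *Gpc6* and *Gpc4*, the mean log2 ratio was larger than its SD, at 0.47 ± 0.28, 0.37 ± 0.25, 0.63 ± 0.17 and 1.14 ± 0.85 (SD, n = 2 each). With n = 2 this says little more than that both libraries gave the same order. Without division by length, *Gpc1* came above *Sdc4* and *Gpc6* above *Sdc1*. *Gpc2* and *Gpc3* were both below 1 CPM per kilobase and changed places between the libraries.

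Summed over each family, syndecan transcripts exceeded glypican transcripts 5.33-fold in replicate 1 and 4.93-fold in replicate 2. The summed level was 458 CPM per kilobase for the syndecans and 85.8 for the listed glypicans in replicate 1, and 510 and 103 in replicate 2. Syndecans thus made up 84.2% and 83.2% of the total of all members, and the log2 ratio of the families was 2.36 ± 0.08 (SD, n = 2). *Sdc3* alone contributed 53.0% of that total in replicate 1 and 56.2% in replicate 2. Without *Sdc3* the syndecans were still 1.97 times the glypicans in replicate 1 and 1.60 times in replicate 2. Within the glypicans *Gpc1* held 67.2% and 52.8%, *Gpc6* 25.2% and 27.4%, and *Gpc4* 7.50% and 18.8%. The log2 ratio of *Gpc1* to *Gpc6* was 1.18 per kilobase of exon, and 0.60 when divided by the longest coding transcript.

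**Figure D2:**
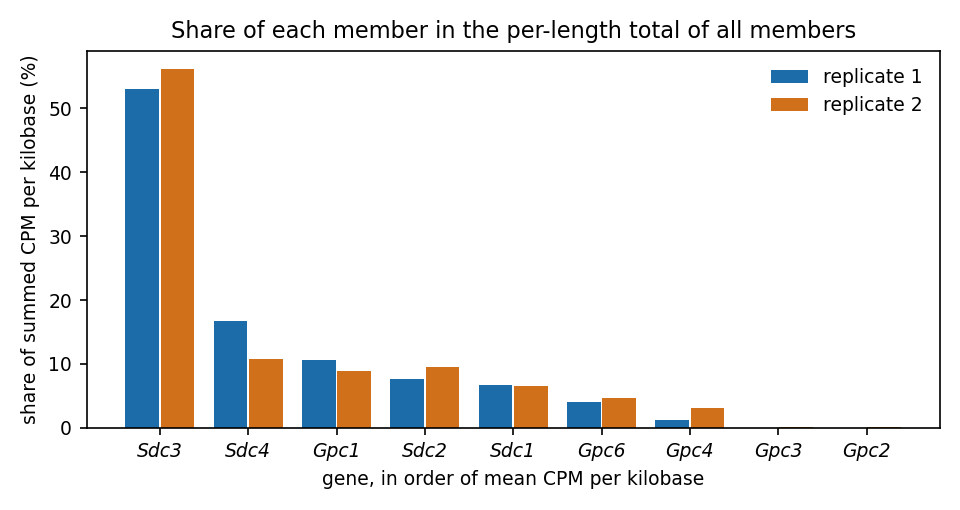
Share of each member in the summed CPM per kilobase of exon of all listed members, in percent, for replicate 1 and replicate 2. *Sdc3* takes 53.0% and 56.2%, *Sdc4* 16.8% and 10.7%, and *Gpc1* 10.6% and 8.90%, while *Gpc2* and *Gpc3* stay below 0.1% in each library.

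Heparan sulfate is also carried by proteoglycans that are secreted into the matrix. *Hspg2*, which encodes perlecan, the main one around chondrocytes, had 1360 CPM in replicate 1 and 1495 in replicate 2. Per kilobase of exon *Sdc3* exceeded *Hspg2* by a log2 ratio of 1.60 and 1.72, larger than the SD of 0.09. *Agrn*, for agrin, had 192 and 141 CPM, and *Gpc1* exceeded it per kilobase by a log2 ratio of 1.66 ± 0.26 (SD, n = 2). *Col18a1*, whose product is the precursor of endostatin, differed most, with 0.693 CPM in replicate 1 and 29.9 in replicate 2. Per length, the syndecans and glypicans made up 82.4% and 83.2% of their total with *Hspg2*, *Agrn* and *Col18a1*, the only secreted carriers counted. This share was 64.3% without division by length, as perlecan has a long transcript of 14.3 kb of exon. Of 4 other surface proteins that can carry heparan or chondroitin sulfate, *Cspg4* had the most reads, at 538 and 619 CPM. *Cd44*, the hyaluronan receptor, had 14.7 CPM in replicate 1 and 126 in replicate 2, and *Nrp1* 24.8 and 51.1 CPM. These were the only ones of the 4 more than 2-fold apart, both higher in replicate 2. Among all genes that averaged 1 CPM or more, 15.1% were more than 2-fold apart and 11.4% were so with replicate 2 higher.

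Differences between the libraries set the error of every level above. The ratio of replicate 2 to replicate 1 was taken on a log2 scale with a pseudocount of 0.1 CPM, which understates the change of low genes. For the 12631 genes that averaged 1 CPM or more, its median was 0.30 and its SD across genes 0.83. Of the 8 members past the same filter, 2 were more than 2-fold apart, against 15.1% of all such genes. Both were glypicans higher in replicate 2 (11.4% of all genes), and no member was more than 2-fold lower (3.71% of all genes). *Gpc4* was 3.02-fold higher in replicate 2, a log2 ratio of 1.59 with a counting error of 0.06, or 1.29 above the median of all genes. The value for *Gpc2* was 2.43-fold, a log2 ratio of 1.17 with a counting error of 0.31, and it was 0.87 relative to the median, that is, below 2-fold. *Gpc3* did not reach the filter and has no fold, as it was listed at 0 in replicate 1.

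The other 6 members lay within a 2-fold difference. The median log2 ratio of the 8 members was 0.32, near the 0.30 of all genes, and 4 lay above and 4 below the median of all genes. *Sdc4* had the lowest value, a log2 ratio of -0.47, or -0.78 relative to the median, and a counting error of 0.02. *Gpc1* had a log2 ratio of -0.08, or -0.38 relative to the median. *Sdc2* and *Gpc6* were higher in replicate 2 under every scaling tried, with log2 ratios of 0.50 and 0.39, or 0.19 and 0.09 relative to the median. For *Sdc1* and *Sdc3* the sign depended on the scaling, with log2 ratios of 0.15 and 0.26 in CPM but -0.16 and -0.05 relative to the median. Over the 9 chondrocyte markers the median log2 ratio relative to all genes was -0.80, and only *Hapln1* lay above the median of all genes, by 0.16. The corresponding median was -0.996 over the 4 fibroblast markers that averaged 1 CPM or more and 1.44 over 5 such osteoblast markers. Their part in the shifts of *Sdc4* and *Gpc4* was not tested.

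**Figure D3:**
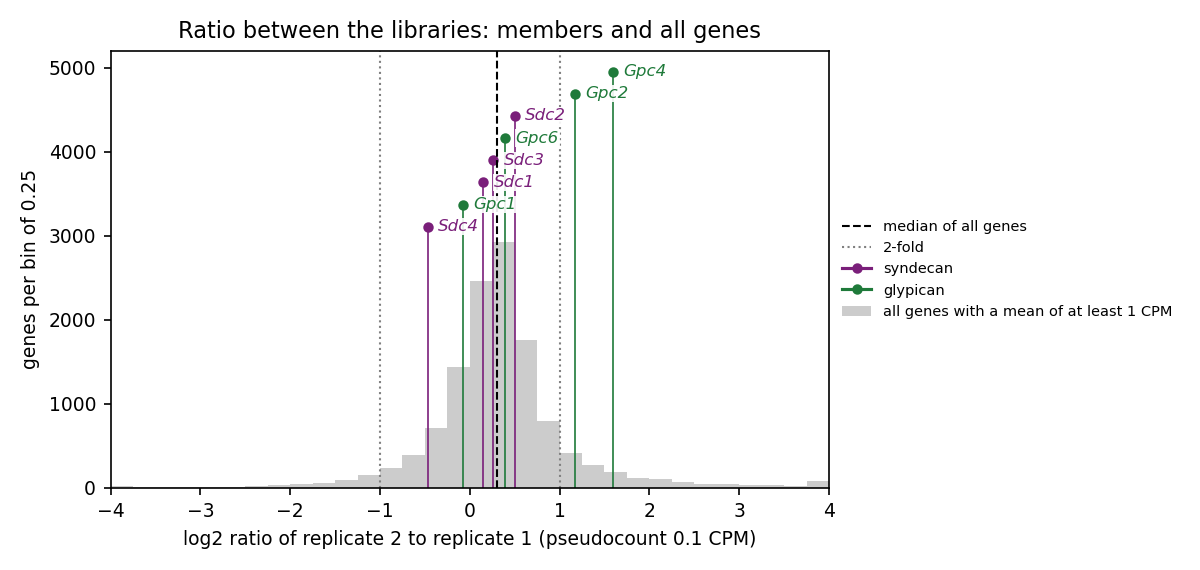
Log2 ratio of replicate 2 to replicate 1 for the 8 members that averaged 1 CPM or more (purple for syndecans, green for glypicans; heights only separate the labels) over the histogram of all 12631 such genes, whose outermost bins also hold values beyond the axis. Of the 8, 6 lie within the dotted lines of a 2-fold difference, and *Gpc2* and *Gpc4* lie to the right of them.

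In the lists of related genes, the genes with most CPM are named without division by length, so their order is no order of transcript levels. Differences of more than 2-fold are counted, as for the members, among the genes that averaged 1 CPM or more. These counts stand against 15.1% of all such genes, with 11.4% higher and 3.71% lower in replicate 2. Counts of genes at 1 CPM or more in both libraries stand against the 50.3% of all genes. Each of the 11 genes of the linker and of chain elongation had at least 1 CPM in both libraries, and none was more than 2-fold apart. *Xylt1*, for the xylosyltransferase that starts the chain on a serine of the core protein, had most, with 906 CPM in replicate 1 and 599 in replicate 2. *Ext2*, a subunit of the polymerase, had 95.3 and 125 CPM, and its partner *Ext1* had 59.1 and 117 CPM, the widest ratio of the list. Of the 16 genes for sulfation and epimerization, 12 were listed and 6 had at least 1 CPM in both libraries. Those with most CPM were *Glce*, for the epimerase, at 87.1 and 80.0 CPM, and *Ndst1*, for the main N-deacetylase/N-sulfotransferase, at 51.3 and 64.7 CPM. *Hs6st2*, a 6-O-sulfotransferase, had 3.93 CPM in replicate 1 and 28.4 in replicate 2. Of the 3-O-sulfotransferases, *Hs3st6* was at 0 in both libraries, and *Hs3st5* was at 5.11 CPM in replicate 1 and 0.807 in replicate 2. Of the 7 genes of the list that averaged 1 CPM or more, *Hs6st2* and *Hs3st5* were more than 2-fold apart, 1 in each direction.

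Of the 4 genes that edit or break down the chains, 2 had at least 1 CPM in both libraries, and 1 of these was more than 2-fold apart. *Sulf1* and *Sulf2* encode the extracellular sulfatases that remove 6-O-sulfates and so change ligand binding. *Sulf1* had 172 CPM in replicate 1 and 477 in replicate 2, a log2 ratio of 1.47, and *Sulf2* had 128 and 126 CPM. *Hpse*, for heparanase, was listed at 0 in replicate 1 and at 0.237 CPM in replicate 2, and *Hpse2* at 0.0924 CPM and 0. Among the 11 genes for shedding and processing, 9 had at least 1 CPM in both libraries. The proprotein convertase gene *Pcsk5* had 557 and 409 CPM, and *Mmp2*, for a matrix metalloproteinase, 372 and 477 CPM. Of the 9 that averaged 1 CPM or more, 2 were more than 2-fold apart, both higher in replicate 2, against 11.4% of all such genes. Both are for syndecan sheddases, *Adam10* with 21.5 and 77.1 CPM and *Mmp14* with 84.6 and 234 CPM. *Notum*, whose product was first described as cleaving glypicans from their anchor, was at 0 in replicate 1 and 0.726 CPM in replicate 2.

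Of the 10 partners of the syndecan tail, 9 had at least 1 CPM in both libraries. The actin crosslinkers *Actn4* (289 and 657 CPM) and *Actn1* (348 and 377 CPM) had most, and of the 9 that averaged 1 CPM or more, *Actn4* was the one more than 2-fold apart. *Sdcbp*, for syntenin, which binds the tail end shown above, had 95.2 and 122 CPM and was named after its values were seen. All 6 genes for attaching and remodelling the GPI anchor had at least 1 CPM in both libraries, among them *Pigt* at 87.6 and 85.8 CPM and *Pigk* at 63.7 and 72.5 CPM, subunits of the transamidase that attaches the anchor. None was more than 2-fold apart, and the widest ratio was that of *Pigu*, for another subunit, with 14.4 and 21.5 CPM. Of the 11 FGF receptors and heparin-binding FGFs, which need heparan sulfate to form a stable complex, 10 were listed and 6 had at least 1 CPM in both libraries. The receptors *Fgfrl1* (390 and 397 CPM) and *Fgfr3* (324 and 339 CPM) were close in both libraries. The ligands *Fgf1*, with 2.77 CPM in replicate 1 and 14.7 in replicate 2, and *Fgf2*, with 22.1 and 91.3 CPM, were the ones more than 2-fold apart among the 7 that averaged 1 CPM or more. Per kilobase *Sdc3* exceeded *Fgfr3* by a log2 ratio of 2.77 ± 0.14 (SD, n = 2).

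**Figure D4:**
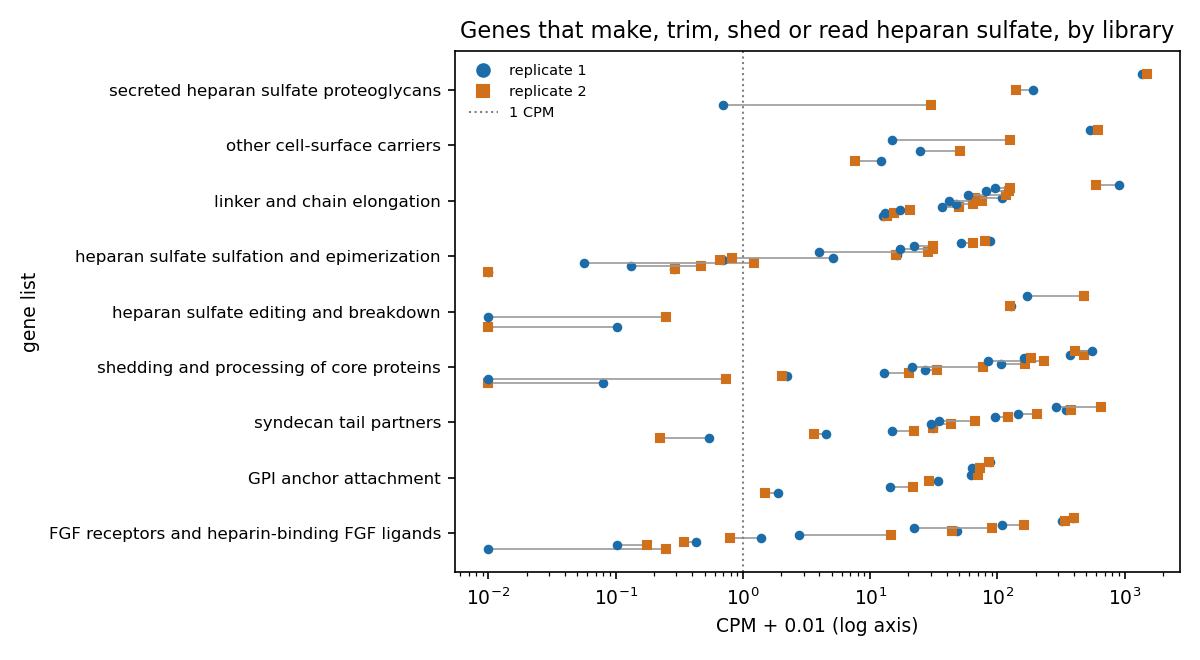
CPM plus 0.01 on a log axis for the listed genes of the 9 related lists, with replicate 1 (circle) and replicate 2 (square) of each gene joined by a line and a dotted line at 1 CPM. The linker and elongation genes and the GPI anchor genes all lie above 1 CPM with short lines. The sulfation, editing, shedding and FGF lists reach down to 0 in at least 1 library, drawn at the left edge.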

How the data were processed

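The authors sequenced poly(A) RNA from stranded libraries with single-end reads of 50 bases. Per the methods and the labels, reads were aligned with STAR 2.7.3a to GRCm38 with GENCODE M25 and quantified by Partek E/M in Partek Flow 10.0.21.0801. The deposited values are CPM with 0.0001 added to each, which was subtracted. Of the values below 1 CPM, 66.7% and 65.3% were whole multiples of 1 read (within 0.05 reads), so count models were not used. Read numbers, their intervals and counting errors are approximate, from CPM divided by the step of 1 read and rounded. Whether counting used the strand is not given in the sources used here. Overlaps on the opposite strand cover 18.9% of the exons of *Gpc1* (*Ankmy1*, below 1 CPM in both libraries) and 6.93% of those of *Sdc3* (*Gm26716*, not listed).

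Means and SDs are over the 2 libraries. Log2 ratios between libraries used a pseudocount of 0.1 CPM. The ratio step was tested on simulated counts with counting error only, scaled by a trimmed mean of log ratios. The ratios in CPM given here were not covered by that test. Lengths and positions come from GENCODE M21 on GRCm38, which matched 22967 of 23628 names (97.2%). Protein sequences were not used here, so the planned protein features were not computed. The rule for naming took the 10 members and allowed, of each related or marker list, the 2 highest genes, those at 0 and the one with the widest ratio. Other list genes more than 2-fold apart (*Nrp1*, *Hs3st5*, *Mmp14*, *Fgf2*) were named after their values were seen. So were the low *Hpse*, *Hpse2* and *Notum*, and the markers *Hapln1*, *Col3a1*, *Pdgfra*, *Thy1*, *Dpt* and *Cd34*. The members and lists were chosen with earlier results of these data known. Computations ran in Python 3.11.15 with pandas 2.3.3, numpy 2.4.6 and scipy 1.17.1, and plots in matplotlib 3.10.9.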

Additional observations from a re-analysis of the deposited data

How the results depend on the processing

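For 26 results, 131 values were recomputed with 1 choice changed, of which 88 stayed within a limit and 43 moved past it. For levels and values per length the limit was the SD between libraries, and for counts a factor of 1.5. For the log2 ratio of a member it was the counting error at the 95% level, and for the median ratio the SD across members. Ratios of members made up 26 of the 43, and those of *Gpc3*, which has no counting error, always counted as moved. None of the members more than 2-fold apart changed sign. The signs of *Sdc1* and *Sdc3*, both within 2-fold, did change. Scaling to a total without the 10 highest genes gave higher levels, at 3094 CPM for *Sdc3*. With 2 libraries, dropping either shifts a mean by under 1 SD whatever the values, so means recomputed this way are among the 88 in any case. Dropping a library also leaves no ratio between libraries. Without one library the number of members at 1 CPM or more ranged from 7 to 9. The number of members more than 2-fold apart was 1 (*Gpc4*) with a trimmed mean of log ratios, upper quartile scaling, a pseudocount of 1 CPM or a minimum mean of 10 CPM, so the call of *Gpc2* does not hold there. It was 3, with *Gpc3* added, for the total without the highest genes and without a filter on low values. When the length was that of the longest coding transcript, the log2 ratio of syndecans to glypicans was 2.12 and that of *Gpc1* to *Gpc6* 0.60. The share of the members in their total with *Hspg2*, *Agrn* and *Col18a1* was then 84.5%. Without division by length, the log2 ratio of *Sdc3* to *Sdc4* was 3.26, the share was 64.3%, and 3 of 9 members kept their place in the order, with *Gpc1* then above *Sdc4* and *Gpc6* above *Sdc1*. Depth limits *Gpc2* and *Gpc3* most, at 71 reads or fewer. No paired analysis was possible because there is 1 condition.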
